A study of Mus musculus with 6 samples.

Results

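Alpha-defensin genes were examined in small intestinal crypt cells of mice after deletion of Ptbp1, which encodes an RNA-binding protein that regulates splicing. The members were all rows of the gene table whose symbol starts with Defa, and the row AY761184, whose locus RefSeq names Defa39. They numbered 40 of 55331 genes. The 3 WT libraries came from C57BL/6 mice with the genotype Ptbp1f/f, and the 3 PTBP1_KO libraries from C57BL/6 mice with the genotype Ptbp1f/f;Vil-creER+/-, in which villin regulatory sequence drives an inducible Cre in intestinal epithelium. All mice were 60 days old, carried the floxed alleles and had 2 injections of tamoxifen at 100 mg/kg, with cells taken 20 h after the last one. Cre was present in the PTBP1_KO group only, so a response to Cre itself and one to loss of Ptbp1 cannot be told apart.

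Alpha-defensins are small cationic peptides with disulfide bonds that damage microbial membranes. In the mouse small intestine they are known as cryptdins and are made by Paneth cells, which sit at the base of the crypt, store the peptides in granules and release them into the lumen. They are made as inactive precursors, and in mice the protease matrilysin, encoded by Mmp7, cuts them to the active form. The genes arose by repeated duplication, so many copies are almost the same in sequence.

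Of the 40 members, 23 are annotated as protein coding in GENCODE M21 and 17 as pseudogenes. On mm10, 36 lie within 724 kb of chromosome 8, from 21025545 to 21750000, and the other 4, the pseudogenes Defa-ps12 to Defa-ps15, lie before it, the last of them ending 1551 kb away. RefSeq gives Defa-ps12 and Defa-ps13 beta-defensin names, Defb46-ps and Defb54-ps, as synonyms. Their transcripts are 68.9% and 68.1% identical to the most similar coding copy. All 23 coding members have 2 exons. In a typical alpha-defensin gene the first exon encodes the signal peptide and most of the propeptide, and the last encodes the mature peptide. Counting in-frame cysteine codons in the last exon separated 21 members with 6 such codons from 2 members with 11, Defa29 and AY761184. The latter belong to the cryptdin-related sequences, given as CRS1C among their RefSeq synonyms. CRS4C names are among the RefSeq synonyms of Defa31, which has 6 such codons, so CRS names occur on both sides of this split.

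The coding part of the last exon is shown for 8 members, the 4 with the highest levels and 4 that rose, so that both kinds and their cysteine spacing can be seen. It was read from the GENCODE M21 transcripts (GRCm38) in the 5′ to 3′ direction of the gene, and capitals mark the cysteine codons.
Defa24: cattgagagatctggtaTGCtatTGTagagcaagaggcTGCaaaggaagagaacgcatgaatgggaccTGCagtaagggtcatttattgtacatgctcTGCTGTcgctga
Defa22: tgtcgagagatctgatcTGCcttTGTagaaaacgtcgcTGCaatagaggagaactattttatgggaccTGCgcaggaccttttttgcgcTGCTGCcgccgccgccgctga
Defa21: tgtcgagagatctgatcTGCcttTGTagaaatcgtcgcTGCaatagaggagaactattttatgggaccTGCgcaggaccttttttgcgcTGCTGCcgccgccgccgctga
Defa30: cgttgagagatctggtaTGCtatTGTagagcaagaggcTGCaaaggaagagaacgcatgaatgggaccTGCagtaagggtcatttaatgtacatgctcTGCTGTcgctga
Defa5: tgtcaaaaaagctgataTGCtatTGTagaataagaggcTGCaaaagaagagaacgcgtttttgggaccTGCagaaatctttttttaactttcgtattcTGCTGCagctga
Defa2: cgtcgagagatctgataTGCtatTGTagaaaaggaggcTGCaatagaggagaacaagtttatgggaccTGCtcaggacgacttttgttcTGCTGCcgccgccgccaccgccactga
Defa29: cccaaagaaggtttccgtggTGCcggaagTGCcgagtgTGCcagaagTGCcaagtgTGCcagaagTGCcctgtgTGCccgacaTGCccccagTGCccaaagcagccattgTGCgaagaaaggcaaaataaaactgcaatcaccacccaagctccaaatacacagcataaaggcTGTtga
AY761184: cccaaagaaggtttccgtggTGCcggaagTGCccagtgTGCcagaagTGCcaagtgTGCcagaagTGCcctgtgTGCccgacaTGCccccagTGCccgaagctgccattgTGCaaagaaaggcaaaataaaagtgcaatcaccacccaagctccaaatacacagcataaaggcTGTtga
In the first 6 the cysteine codons 1 to 4 start at the same positions, and the closing pair starts 9 bases earlier in Defa22, Defa21 and Defa2 than in Defa24, Defa30 and Defa5. Defa29 and AY761184 share a longer stretch of 179 bases, in which 8 of the 10 steps from one cysteine codon to the next are 9 bases long.

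Levels are the authors' FPKM, fragment counts scaled to transcript length and to the size of the library, with 1 value per group and none per library. No value below therefore has a spread of its own, and the error enters only through the authors' p and q. A member counted as changed when the authors' q was below 0.05 and its status was OK, which marks a gene with enough fragments to be tested. This table does not give sequencing depth. Nothing in the labels says that the 3 libraries of a group came from separate animals. The spread between libraries that enters the p-values may therefore be technical. What else the authors' test counted as error is not given in the sources used here. Ptbp1 had 230.0 FPKM in WT against 122.8 in PTBP1_KO, which is 53.4% of the WT level, with q = 0.0125 in the authors' deposited table.

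Alpha-defensin levels were higher in PTBP1_KO for 22 of the 23 tested members (95.7%, against 54.7% of all tested genes), and 7 of them rose past the threshold. These 7 are 30.4% of the tested members, where 0.388% of all 15460 tested genes were called in that direction, and no member was called lower. At an unadjusted p below 0.05 in the authors' deposited table, 15 members were higher (65.2%, against 2.69% of all tested genes) and 0 lower. The median log2((PTBP1_KO + 1)/(WT + 1)) was 0.53 over the tested members and 0.02 over all tested genes. Copies share sequence, so the members are not independent of one another and these counts describe the cluster. Summed over all 40 members, the level was 14800 FPKM in WT against 23382 in PTBP1_KO, a ratio of 1.58. Because the libraries are bulk RNA, more Paneth cells and more of this RNA per Paneth cell cannot be told apart.

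**Figure D1:**
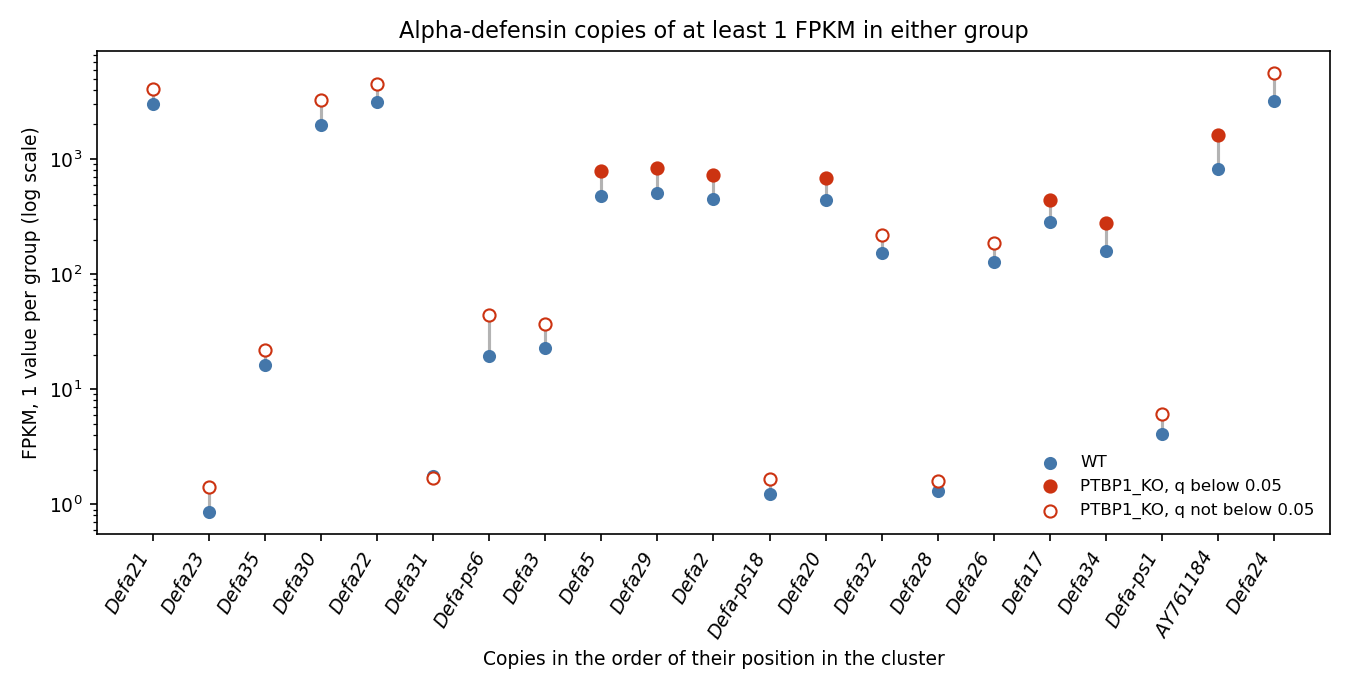
FPKM (log scale, 1 value per group without error) of the 21 tested alpha-defensin copies of at least 1 FPKM in either group, ordered by position along the cluster; blue points are WT, red points PTBP1_KO, filled where the authors' q is below 0.05. All copies but Defa31 are higher in PTBP1_KO, and the 4 highest copies are open points.

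The most abundant copies carried most of the RNA and did not pass the threshold singly. Defa24 (ENSMUSG00000064213.5, chr8:21734494-21735471, plus strand) had 3212 FPKM in WT against 5632 in PTBP1_KO, and its rank among all listed genes went from 4 to 2. The authors' deposited table gave Defa24 a log2 fold change of 0.81 with p = 0.00215 and q = 0.212. Defa22 had 3117 FPKM in WT against 4502 in PTBP1_KO, with q = 0.624 in the authors' deposited table. These are copies with 6 cysteine codons, of which Defa24 had the larger difference. Defa21 had 2994 FPKM in WT against 4047 in PTBP1_KO, with a log2 fold change of 0.44 and q = 0.9998 in the authors' deposited table. Defa30 (ENSMUSG00000074444.4, chr8:21134642-21135598, plus strand) had 1973 FPKM in WT against 3255 in PTBP1_KO, and came nearest to the threshold with a log2 fold change of 0.72 and q = 0.0527 in the authors' deposited table. Together these 4 copies made up 76.3% of the members' summed level in WT and 74.6% in PTBP1_KO, and their sum was 1.54 times as high in PTBP1_KO.

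The 7 members that rose had intermediate levels. AY761184 (ENSMUSG00000058618.6, chr8:21702519-21703645, minus strand), with 11 cysteine codons, rose most, from 824 FPKM in WT to 1633 in PTBP1_KO, and the authors' deposited table gave a log2 fold change of 0.99 with q = 0.0125. Defa29, the other member of that kind, rose from 508 FPKM to 840 FPKM, with a log2 fold change of 0.72 and q = 0.0125 in the authors' deposited table. Their sum was 1.86 times as high in PTBP1_KO, against 1.55 times for the 21 members with 6 cysteine codons, a difference that was not tested. Among the latter, Defa34 rose from 158 FPKM to 279 FPKM, with a log2 fold change of 0.82 in the authors' deposited table. Defa5 rose from 476 FPKM to 796 FPKM, with a log2 fold change of 0.74 in the authors' deposited table. The remaining 3 members that rose changed by somewhat less. Defa2 rose from 451 FPKM to 729 FPKM, with a log2 fold change of 0.69 in the authors' deposited table. Defa20 rose from 441 FPKM to 689 FPKM and Defa17 from 287 FPKM to 445 FPKM, with log2 fold changes of 0.64 and 0.63 in the authors' deposited table. The authors' deposited table listed q = 0.0227 for Defa5 and Defa17 and q = 0.0125 for the other 5, which all had p = 5e-05, the smallest p over all tested genes. The 7 members together held 21.3% of the members' summed level in WT.

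Among the 13 members of at least 100 FPKM in either group, all were higher in PTBP1_KO, and the ratio of PTBP1_KO to WT ran from 1.35 for Defa21 to 1.98 for AY761184 with a median of 1.62. Defa32 had 153 FPKM in WT against 220 in PTBP1_KO, with q = 0.258 in the authors' deposited table. Defa26 had 127 FPKM in WT against 185 in PTBP1_KO, with q = 0.284 in the authors' deposited table. Tested genes at this level had a median log2 fold change of 0.05 in the authors' deposited table. Of these 1001 genes, 13 were called higher, and 7 of the 13 were alpha-defensins. The other 6 were Mptx2, Ang4, Mt1, Mmp7, Gzma and Clps, named after their values were seen. Mptx2, Ang4 and Mmp7 are Paneth cell products too.

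**Figure D2:**
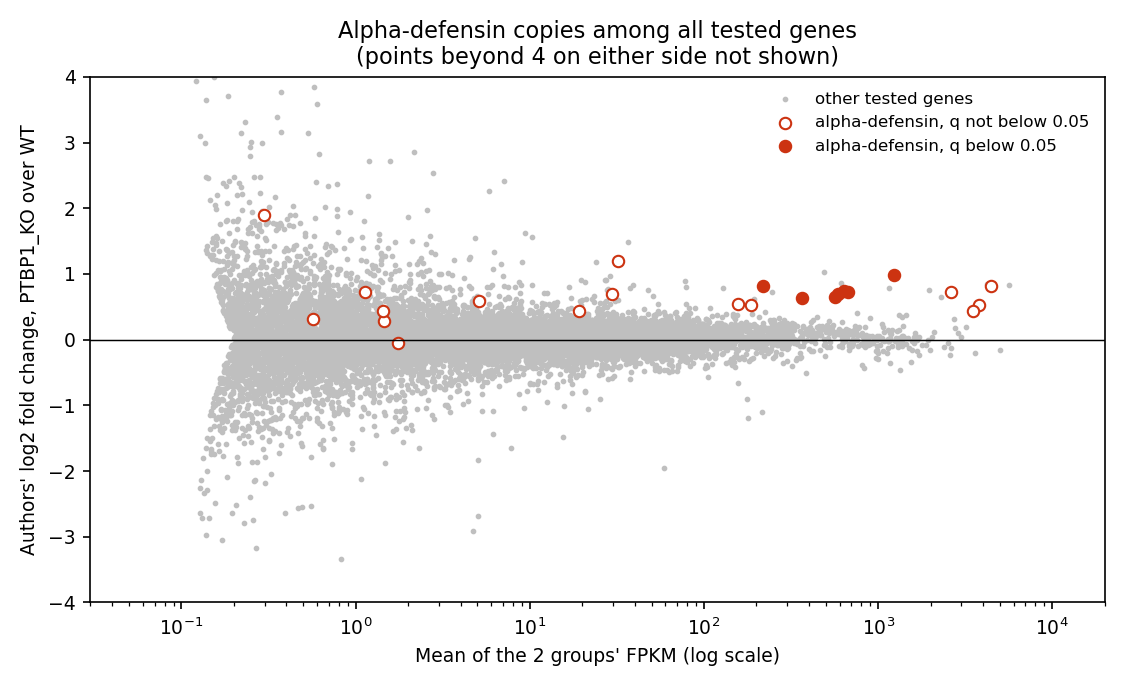
The authors' log2 fold change (PTBP1_KO over WT) against the mean of both groups' FPKM (log scale) for tested genes with a value above 0 in both groups; grey points are other genes and red points alpha-defensin copies, filled where the authors' q is below 0.05. The 13 copies of at least 100 FPKM lie between 0.44 and 0.99, where most genes of that level lie near 0.

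Below 100 FPKM, 8 tested members reached at least 1 FPKM, and none of them was called. The pseudogene Defa-ps6 had 19.4 FPKM in WT against 44.4 in PTBP1_KO, with a log2 fold change of 1.19, p = 0.0013 and q = 0.155 in the authors' deposited table. Its short transcript of 282 bases is 99.3% identical to that of Defa-ps1 and 96.8% identical to that of the coding copy Defa25, which was listed at 0 in both groups. Of the Defa-ps6 transcript, 83.6% of the 100-base windows and 35.2% of the 50-base windows were found in no other gene. Defa3 had 22.8 FPKM in WT against 36.7 in PTBP1_KO, and Defa35 had 16.3 FPKM and 22.1 FPKM, with p = 0.008 and p = 0.128 in the authors' deposited table. The other 5 had low levels. Defa-ps1 had 4.08 FPKM in WT against 6.14 in PTBP1_KO. Defa31 had 1.78 FPKM and 1.71 FPKM, the only tested member with a lower value in PTBP1_KO, and p = 0.912 in the authors' deposited table. Defa28, Defa23 and Defa-ps18 had 0.855 to 1.31 FPKM in WT and 1.42 to 1.65 FPKM in PTBP1_KO. Defa36 and Defa37 stayed below 1 FPKM in both groups, with p = 0.665 and p = 0.143 in the authors' deposited table.

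The other 17 members, 14 pseudogenes and 3 coding copies, had the status NOTEST. Of these, 13 were listed at 0 in both groups, among them 1 coding copy, Defa25. Defa27, Defa33 and Defa-ps4 were listed at 0 in WT only, with 0.0539, 0.109 and 6.39 FPKM in PTBP1_KO. Defa-ps7 had 9.19 FPKM in WT against 7.46 in PTBP1_KO. Of the 13 rows at 0 in both groups, 6 pseudogenes (Defa-ps10 to Defa-ps15) had at least 92.6% of 50-base windows found in no other gene. The other 7 had at most 54.4% of 100-base windows unique, and for these a value of 0 does not show that their RNA was absent, because reads from shared sequence cannot be assigned to 1 copy.

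Sequence shared between copies was measured, since it limits what a value for 1 copy means. Over the shorter transcript, the most similar other coding copy was at least 97.0% identical for each of the 23 coding members, with a median of 99.5%. Defa2 and Defa33 are 99.8% identical over 426 bases with no difference in their coding sequence, yet Defa2 was listed at 451 FPKM in WT and Defa33 at 0. Defa20 and Defa32 likewise have the same coding sequence and were listed at 441 and 153 FPKM in WT. Defa17 and Defa3, also the same in coding sequence, were listed at 287 and 22.8 FPKM in WT. In each of these 3 pairs the copy with the higher value was called and the other was not, while the sums of the pairs were 1.62, 1.53 and 1.55 times as high in PTBP1_KO. Defa21 and Defa22 differ at 2 coding positions, T114G and T204A (the base in Defa21, its position from the A of the start codon, the base in Defa22), and their sum was 1.40 times as high.

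Values were also higher in PTBP1_KO for copies of at least 100 FPKM whose sequence sets them apart. Of these, AY761184 and Defa29 were called and Defa24, Defa30 and Defa26 were not. Defa24 and AY761184 had no window of 100 bases in common with the transcript of any other gene in GENCODE M21, and 99.7% of such windows were unique in Defa30, 98.9% in Defa26 and 89.0% in Defa29. The sum over these 5 copies was 6645 FPKM in WT against 11545 in PTBP1_KO, a ratio of 1.74. The other 8 members of at least 100 FPKM, with 0% to 59.7% of windows unique, had a ratio of sums of 1.45. Of their 8077 FPKM in WT, Defa21 and Defa22 held 6110, with a ratio of 1.40. The 6 copies with at most 25% of windows unique had log2 fold changes from 0.52 to 0.82 in the authors' deposited table. The difference between 1.74 and 1.45 was not tested, and the limit of 80% between both sets was chosen after the values were seen. At the shorter window of 50 bases the share ran from 0% for Defa2, Defa20 and Defa32 to 71.9% for Defa24. The read length is not given in the sources used here.

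**Figure D3:**
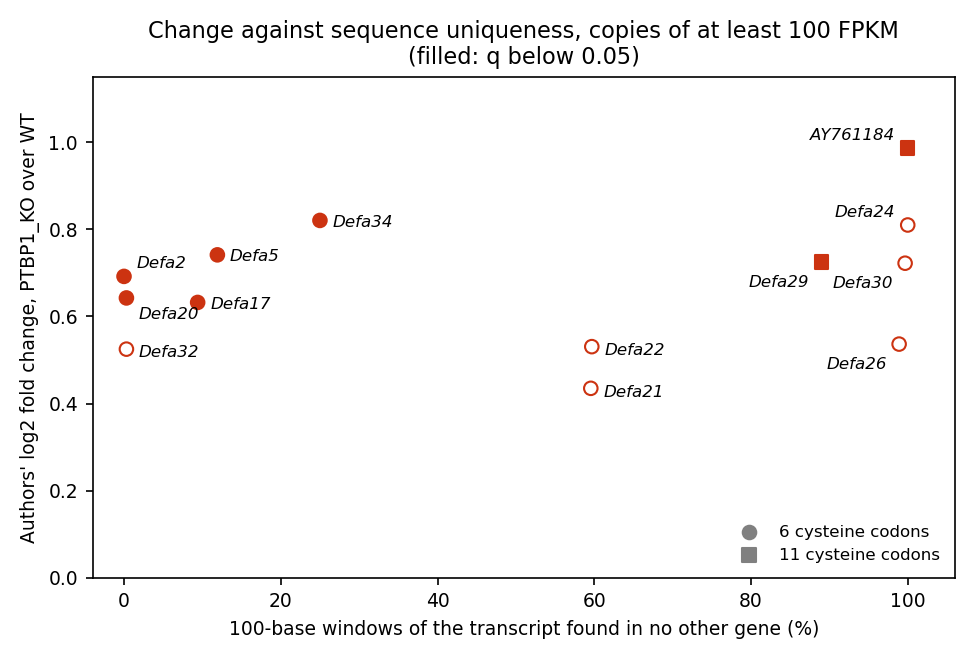
The authors' log2 fold change (PTBP1_KO over WT) against the percentage of 100-base transcript windows found in no other gene, for the 13 alpha-defensin copies of at least 100 FPKM; circles have 6 and squares 11 cysteine codons in the last exon, filled where the authors' q is below 0.05. The 5 copies with at least 80% of windows unique lie between 0.54 and 0.99, the 6 with at most 25% between 0.52 and 0.82, and Defa21 and Defa22, at 59.6% and 59.7%, lie at 0.44 and 0.53.

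RefSeq (GRCm38.p6) gives Defa names to 5 further rows that the gene table lists under other symbols, and these are not members. Gm14851 (RefSeq Defa38), with 11 cysteine codons, had 1779 FPKM in WT against 2791 in PTBP1_KO, with a log2 fold change of 0.65 and q = 0.105 in the authors' deposited table. Gm15292 (Defa40) had 68.7 FPKM in WT against 96.3 in PTBP1_KO. Gm15293, Gm7849 and Gm7861 had at most 3.20 FPKM in either group. None of the 5 was called, and with them the summed level was 1.58 times as high in PTBP1_KO, as without them. The sum over all 5 rows with 11 cysteine codons was 1.69 times as high, lower than for the 2 members alone.

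Neighbouring genes were read beside the cluster. Apart from the 5 rows with RefSeq Defa names, none of the 21 other rows between its first and last member was tested, and their highest value was 0.00419 FPKM. Within 1000 kb on either side 20 genes were tested. None was called, none had an unadjusted p below 0.05 in the authors' deposited table, and their log2 fold changes ran from -0.32 to 0.20 in that table. They include the beta-defensin gene Defb1, with 0.568 FPKM in WT against 0.591 in PTBP1_KO.

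Sequence before the transcription start was available for 12 members from RefSeq (GRCm38.p6), from 250 bases before to 50 after the start. The last 150 bases before the start are shown for Defa21, Defa30 and Defa2, the highest of these members with different sequences, and for Defa37, chosen afterwards for its low level. Defa22 has the same 250 bases before the start as Defa21. No such sequence was available for Defa24 or for the called members AY761184, Defa29, Defa5, Defa17 and Defa34. Capitals mark CTTTGAT, the motif of TCF/LEF factors that act in Wnt signalling, which reads ATCAAAG here because it lies on the opposite strand, and the TATA box TATAAA.
Defa21, chr8:21025395-21025544, plus strand: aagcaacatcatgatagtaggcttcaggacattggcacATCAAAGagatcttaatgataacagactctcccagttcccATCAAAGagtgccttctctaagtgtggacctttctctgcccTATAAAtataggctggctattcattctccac
Defa30, chr8:21134500-21134649, plus strand: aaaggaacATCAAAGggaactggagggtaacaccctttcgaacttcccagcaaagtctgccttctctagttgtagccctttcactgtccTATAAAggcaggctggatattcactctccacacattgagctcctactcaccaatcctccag
Defa2, chr8:21378367-21378516, plus strand: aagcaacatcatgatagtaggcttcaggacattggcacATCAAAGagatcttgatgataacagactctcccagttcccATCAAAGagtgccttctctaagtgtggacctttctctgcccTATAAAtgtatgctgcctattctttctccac
Defa37, chr8:21565236-21565385, plus strand: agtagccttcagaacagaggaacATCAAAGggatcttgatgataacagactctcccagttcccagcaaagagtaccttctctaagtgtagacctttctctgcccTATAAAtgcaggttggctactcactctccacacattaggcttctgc
Both strands were searched for CTTTGAA or CTTTGAT, and all 12 windows held a match, against 8.65% of the 32851 promoter windows in the table. The matches lay between 142 and 64 bases before the start. Defa21, Defa22, Defa2, Defa20 and Defa32 had 2 of them 40 bases apart, as did Defa35, Defa31 and Defa23, whereas Defa30, Defa28, Defa36 and Defa37 had 1. Among rows with RefSeq Defa names that are not members, Gm15293 had 2 matches. Gm14851, Gm7849 and Gm7861, which have 11 cysteine codons, had no match. No member with 11 cysteine codons could be searched. TATAAA was found in 11 of the 12, all but Defa28, and in 13.6% of all windows. Of the E-box motifs, CAGATG was found in 11 of 12 members and 17.2% of all windows, and CAGCTG in 1 of 12 and 16.3%. None of these motifs overlapped another. The upstream sequences of many of these copies are nearly the same, so their matches are not independent. Copies of very different level share them, as Defa21 at 2994 FPKM and Defa31 at 1.78 FPKM in WT do.

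Other Paneth cell genes were compared through lists chosen by their known roles, but with earlier results of these data known. Of 16 Paneth cell products other than alpha-defensins, 3 were called higher and none lower, where 0.388% of all tested genes were called higher. At an unadjusted p below 0.05 in the authors' deposited table, 9 were higher, against 2.69% of all tested genes. Mmp7, the activating protease, rose from 154 FPKM in WT to 236 in PTBP1_KO, with a log2 fold change of 0.62 in the authors' deposited table. Ang4, an antimicrobial ribonuclease, rose from 435 FPKM to 786 FPKM, and Mptx2, a pentraxin, from 321 FPKM to 652 FPKM, both with q = 0.0125 in the authors' deposited table. Lysozyme, encoded by Lyz1, had 1471 FPKM in WT against 2470 in PTBP1_KO, a ratio of 1.68, with q = 0.9998 in the authors' deposited table. Nupr1, Pla2g2a, Cd24a and Kcnn4 had ratios from 0.867 to 1.005 and were not called. The list's median log2((PTBP1_KO + 1)/(WT + 1)) was 0.42, and its summed level was 1.61 times as high, next to 1.58 for the alpha-defensins.

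Genes that govern Paneth cell fate and defensin expression were not called in either direction. None of 16 regulators passed the threshold, their median was -0.03, and 7 were higher and 9 lower. Sox9, a transcription factor needed for Paneth cells, had 16.7 FPKM in WT against 13.6 in PTBP1_KO, the only one with an unadjusted p below 0.05 in the authors' deposited table (p = 0.04). Tcf7l2, which encodes the Wnt effector TCF4, had 19.1 FPKM in WT against 20.2 in PTBP1_KO. Fzd5, a Wnt receptor of Paneth cells, had 36.0 FPKM and 39.1 FPKM, and Ephb3, a receptor that keeps them at the crypt base, had 9.44 FPKM and 9.03 FPKM. Nod2, a sensor of bacterial wall fragments, had 0.704 FPKM and 0.573 FPKM.

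Other antimicrobial genes, 54 rows with 43 beta-defensins, held 10 tested genes and 39 listed at 0 in both groups. All 10 were higher in PTBP1_KO, as were 54.7% of all tested genes, and 5 had an unadjusted p below 0.05 in the authors' deposited table. The list's median log2((PTBP1_KO + 1)/(WT + 1)) was 0.48, and its summed level was 1.58 times as high, close to the alpha-defensins. Only Retnlb was called, with 3.56 FPKM in WT against 8.97 in PTBP1_KO and q = 0.0466 in the authors' deposited table. Reg3b had 4063 FPKM in WT against 7214 in PTBP1_KO, and Reg3g 3015 FPKM and 5396 FPKM, both lectins that bind bacteria, with q = 0.849 and q = 0.531 in the authors' deposited table. Of the beta-defensins only Defb1 and Defb37 were tested, at less than 1 FPKM.

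**Figure D4:**
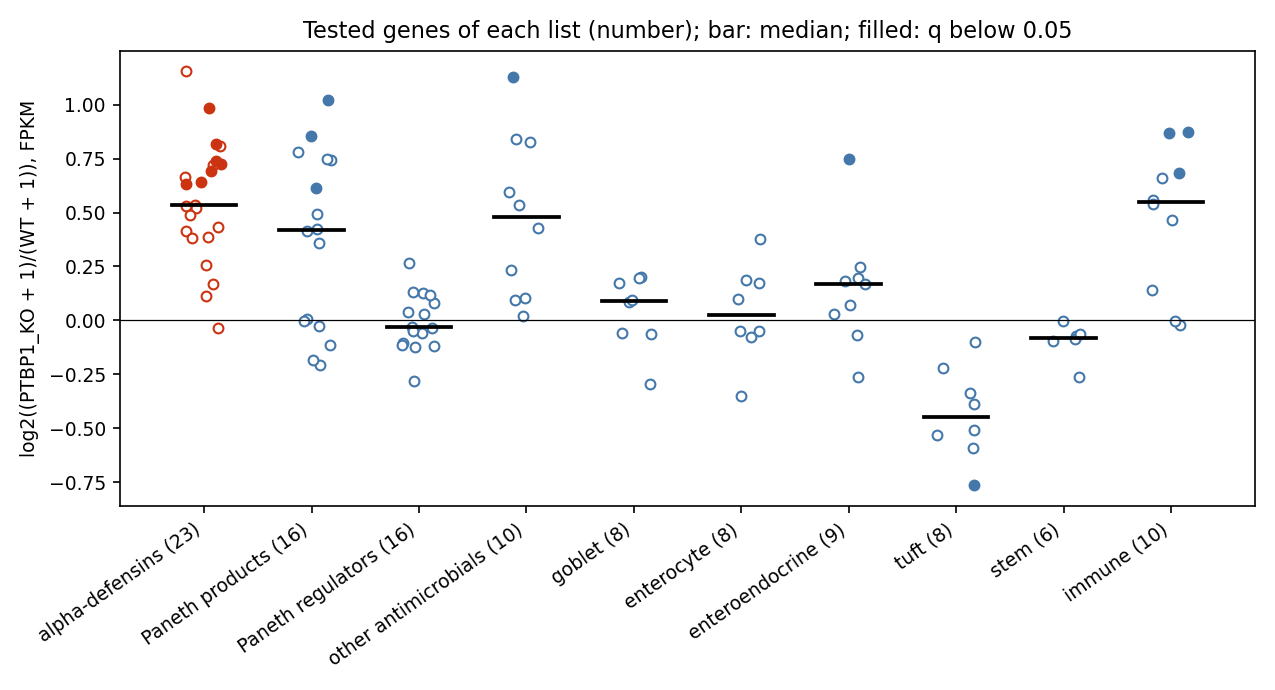
log2((PTBP1_KO + 1)/(WT + 1)) from the authors' FPKM for the tested genes of each list, with their number; red points are alpha-defensin copies, blue points other genes, filled where the authors' q is below 0.05, and bars are medians. The medians of the alpha-defensins and of the other Paneth cell products are 0.53 and 0.42, and those of goblet, enterocyte and stem cell markers lie between -0.08 and 0.09. Immune markers and other antimicrobials have medians of 0.55 and 0.48, enteroendocrine markers 0.17, Paneth cell regulators -0.03 and tuft cell markers -0.45.

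Markers of other cell types were read beside the alpha-defensins. The 6 Paneth cell markers, Mmp7, Habp2, Itln1, Ang4, Lyz1 and Mptx2, are all part of the list of 16 products, and their 3 calls are those given above. All 6 were higher, with a summed level of 3244 FPKM in WT against 5628 in PTBP1_KO. The other 10 products were higher for 5 and lower for 5, with none called and 4 higher at an unadjusted p below 0.05 in the authors' deposited table, and their summed level was 618 FPKM in WT against 589 in PTBP1_KO. Goblet cell markers had a ratio of summed levels of 1.03 (8 tested), enterocyte markers 1.04 (8 tested) and stem cell markers 0.931 (6 tested), with none called. Of 10 immune cell markers, 8 were higher, with 3 called and a summed level of 113 FPKM in WT against 194 in PTBP1_KO. Among all tested genes 54.7% were higher and 0.388% were called higher. All 8 tuft cell markers were lower, with 1 called, 5 at an unadjusted p below 0.05 and a summed level of 85.7 FPKM and 55.9 FPKM. Enteroendocrine markers had 7 of 9 higher, with 1 called, and a ratio of 1.16. Stromal markers had 2 of 5 higher and 3 lower at an unadjusted p below 0.05, with none called. Their summed level was 6.44 FPKM in WT against 7.28 in PTBP1_KO, most of it Vim, with 4.90 FPKM and 6.28 FPKM. The 3 lower ones, Col1a1, Col1a2 and Col3a1, were below 1 FPKM in both groups, with ratios from 0.395 to 0.457. The part of the immune, tuft and stromal values in the alpha-defensin result was not tested. Neutrophils, which make alpha-defensins in humans but not in mice, left little trace: Elane, Mpo and Camp were listed at 0 in both groups, and the 6 neutrophil markers summed to 1.87 FPKM in WT against 3.32 in PTBP1_KO.

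None of the 61715 splicing events in the 5 deposited splicing tables belonged to an alpha-defensin member, by gene identifier or by symbol. The splicing data thus give no value for these genes.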

How the data were processed

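Crypt cells gave 3 WT and 3 PTBP1_KO libraries of polyadenylated RNA, made with a stranded kit, per the labels' protocols. The submitters' processing notes name mm10 as the build and list Cuffdiff, Cufflinks, STAR 2.6.1d, Trimmomatic 0.38 and bcl2fastq 2.20. FPKM values, 1 per group, were made by the authors before deposition. The log2 fold change, p-value and q-value of each gene are deposited by the authors, per the file headers. How reads that match several copies were divided is not given in the sources used here. The splicing tables, whose FDR is an adjusted p-value computed by the authors, were read only for the genes they list.

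Groups were taken from the sample titles. Calls use the authors' q below 0.05, and Python 3.11.15, pandas 2.3.3, numpy 2.4.6, Biopython 1.88 and matplotlib 3.10.9 were used for sums, medians with a pseudocount of 1 FPKM, alignments and windows of 50 and 100 bases. Medians were tested on deposited WT values with a known shift put in, and alignment identity and window counts on simulated sequences. All 40 identifiers were found in GENCODE M21 (GRCm38), which gave the positions used here. No protein table was used here, so coding DNA is printed in place of proteins. All members were accounted for, and those of at least 1 FPKM were named with values; printed sequences were chosen by level and call, except Defa37. The members and gene lists were chosen with earlier results of these data known. Thresholds, pseudocounts, centring and filters were varied.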

Additional observations from a re-analysis of the deposited data

How the results depend on the processing

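The number of alpha-defensin members called, 7, became 0 at q < 0.01, because the smallest q over all genes in the authors' deposited table was 0.0125, and 0 where the log2 fold change also had to reach 1 in size, which AY761184 missed at 0.99. At an unadjusted p below 0.05 it was 15. At q < 0.1 it was 8, with Defa30 added, and a minimum of 1 FPKM or the 5 RefSeq rows left it at 7. The median log2 ratio ran from 0.51 (pseudocount of 10) to 0.72 (tested members with at least 80% of 100-base windows unique), and the ratio of summed levels from 1.53 (without Defa24) to 1.74 (all members with such windows, at any level). The settings with RefSeq rows, with unique copies and with members of at least 100 FPKM were chosen after seeing the data. Centring changed no direction. No paired analysis was possible because the gene table gives 1 value per group, and for the same reason no replicate could be left out. The unknown depth and the shared sequence limit what any single copy's value shows.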
